A study of Mus musculus with 3 samples.

Results

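Cytokine receptor genes encode the cell-surface chains through which interleukins, interferons and colony-stimulating factors act on a cell. The set described here is 43 mouse genes for the receptor chains of these 3 groups of ligands, chosen by gene name from 55450 annotated genes, of which 21951 are protein-coding. All 43 had an entry in the deposited gene tables under the GENCODE M21 annotation of the mouse assembly GRCm38 (mm10). The samples are 3 polyA-selected RNA-seq libraries of naive thymus-derived CD4+ αβ T cells, helper T cells that matured in the thymus and have not yet met antigen. The cells came from 1 adult male mouse of strain B6.SJL-Ptprca Pepcb/BoyJ aged 5 months, and the labels give the libraries as technical replicates 1, 2 and 3 of 1 biological replicate. There is a single group, so no condition can be compared, and any spread given here is between technical libraries, not between mice.

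Most of these receptors work as pairs or trios of chains. One chain usually recognises a single cytokine, and a second, shared chain brings in signalling. The common γ chain (Il2rg) serves interleukin (IL)-2, IL-4, IL-7, IL-9, IL-15 and IL-21, gp130 (Il6st) serves the IL-6 family, and the common β chain (Csf2rb) serves IL-3, IL-5 and GM-CSF. Chains of the type I and type II classes signal through Janus kinases (JAKs) and STAT transcription factors, whereas IL-1 and IL-17 receptors use other adaptors and M-CSF acts through a receptor that is itself a kinase. A naive T cell depends on IL-7 for survival, and signals from IL-2, IL-4, IL-6, IL-12, IL-21 and the interferons help to set what kind of helper cell it becomes. Many receptor genes also make secreted forms that lack the membrane-spanning segment, or RNA forms that do not encode a full chain.

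The depth was 14837442, 18207118 and 17505621 expected counts in libraries 1, 2 and 3. An expected count is an estimated number of reads that need not be whole, and TPM is its form scaled for transcript length and for the library's total, so TPM can be set side by side between genes. On a transcript of 1 kilobase, 3 counts corresponded to 0.349, 0.269 and 0.294 TPM. T cell markers were high and all 9 listed were detected, with summed levels of 10782, 10006 and 11068 TPM. None of the 7 monocyte or macrophage markers, 5 neutrophil or mast cell markers and 5 dendritic cell markers was detected, and their summed levels lay between 0.42 and 2.98 TPM in a library. Itgax, Fcer1a and Krt5, which mark dendritic cells, mast cells and epithelium, were at 0 counts in every library. Of the markers listed for cells other than T cells, those detected were Rora (22.4 to 28.4 TPM), Epcam (2.75 to 3.93 TPM) and Cd79a (1.49 to 2.74 TPM). Of the 2 CD8 T cell markers, Cd8b1 was detected at 16.8, 17.0 and 17.2 TPM and Cd8a was not, at 0.18, 0.09 and 0.15 TPM. Of the 6 effector or memory markers only Cd44 was detected, at 18.2, 19.3 and 19.6 TPM. All 5 regulatory T cell markers were detected, and Tnfrsf18, at 265, 224 and 266 TPM, held most of their sum of 354, 320 and 354 TPM. The part of cells other than naive CD4+ T cells in the results was not tested.

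A gene was called detected when its TPM was at least 1 in every library. By that rule 23 of the 43 receptor genes (53.5%) were detected, against 44.7% of all protein-coding genes and 21.5% of all genes with an entry. Of the 23, 8 passed 100 TPM in every library, 8 had means from 10 to 100 TPM and 7 lay below 10 TPM. Of the 20 not detected, 11 had at most 10 counts over the 3 libraries, and Il23r and Il22ra1 had none. The median of the mean TPM was 1.66 over the 43 receptor genes and 0.373 over protein-coding genes. Among detected genes alone the medians were 36.8 and 31.4 TPM. The 5 highest receptor genes held 78.2% of the TPM of all 43. In the order of the 23 detected genes, 9 of 22 neighbours had overlapping libraries, so their order is not resolved between these libraries.

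**Figure D1:**
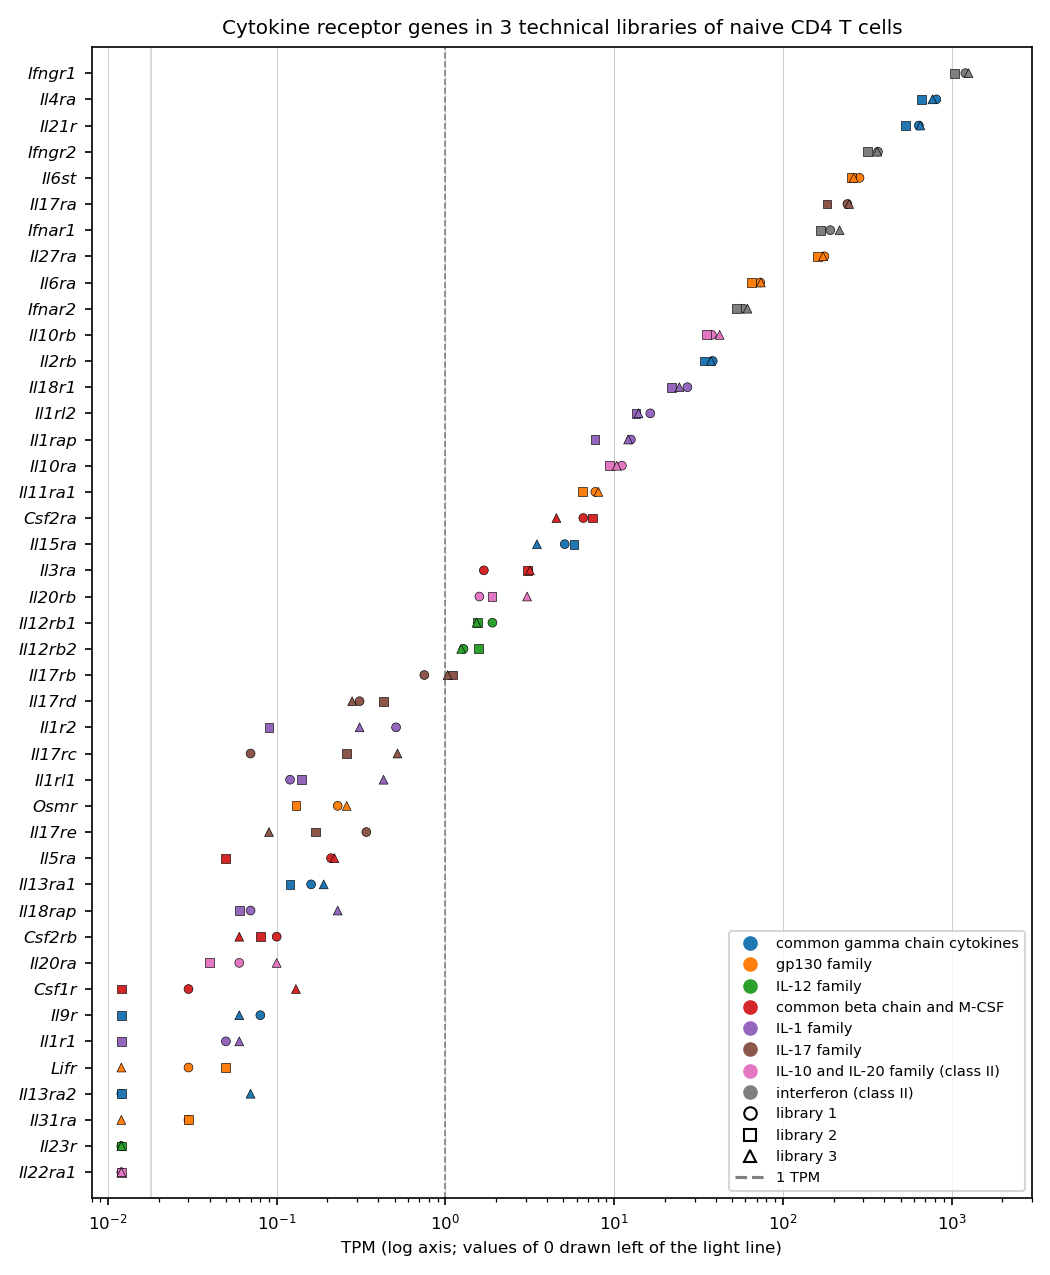
TPM of each of the 43 receptor genes (log axis) in library 1 (circles), library 2 (squares) and library 3 (triangles), ordered by mean and coloured by family. The dashed line marks 1 TPM: 23 genes have every library to its right, Il17rb straddles it, and Il23r and Il22ra1 lie at 0 in all 3 libraries.

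The receptors for interferon-γ and for interferons α and β were complete and high. Ifngr1 (chromosome 10, 19591949 to 19610229), the ligand-binding chain for interferon-γ, had 1208, 1044 and 1262 TPM in libraries 1, 2 and 3. Ifngr2 (chromosome 16, 91547072 to 91565623), the signalling chain of the same receptor, had 367, 319 and 363 TPM. Ifngr1 was the highest of all 43 genes, at percentile 99.6 of protein-coding genes, and no library of Ifngr1 overlapped one of Ifngr2. The log2 ratio of Ifngr1 over Ifngr2 was 1.74 ± 0.05 (SD, n = 3 libraries), on the scale log2(TPM + 0.1) used for all such ratios. Ifnar1 (chromosome 16, 91485238 to 91507441), a chain of the receptor for interferons α and β, had 191, 168 and 217 TPM. Its partner Ifnar2 (chromosome 16, 91372783 to 91405589), which binds these interferons most tightly, had 58.5, 53.3 and 61.8 TPM. Here too the first chain was higher in each library, by a log2 ratio of 1.72 ± 0.08. These levels take all forms of each gene together. Coding forms with a stretch that could span the membrane had 587, 489 and 546 TPM for Ifngr1 and 165, 151 and 166 TPM for Ifngr2. For Ifnar1 such forms had 86.6, 81.4 and 90.2 TPM, and for Ifnar2 17.6, 20.1 and 16.8 TPM. Ifnlr1, the specific chain for type III interferons, is outside the 43 genes and had 6 counts over the 3 libraries.

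The common γ chain family ranged from very high to undetected chains, with others in between. Il2rg itself, which is a partner outside the 43 genes, had 1208, 995 and 1312 TPM. Il4ra (chromosome 7, 125552120 to 125579474), the IL-4-binding chain, had 813, 662 and 770 TPM. Il21r (chromosome 7, 125603429 to 125633570), the chain for IL-21, had 640, 534 and 654 TPM. Both stood below Il2rg in each library without overlap, and the genes are neighbours on the chromosome, 24.0 kilobases apart. Il2rb (chromosome 15, 78479256 to 78495271), the β chain shared by IL-2 and IL-15, had 38.4, 34.3 and 37.6 TPM. Il15ra (chromosome 2, 11705290 to 11734317), which presents IL-15 to the β and γ chains, had 5.10, 5.78 and 3.49 TPM. Il2ra, the α chain that gives high affinity for IL-2 and also marks regulatory and activated T cells, had 6.55, 8.60 and 6.68 TPM. In the IL-2 and IL-15 receptors every specific chain thus lay far below Il2rg, and Il15ra and Il2ra were the lowest chains. Foxp3, the transcription factor that defines regulatory T cells, had 18.4, 20.9 and 17.4 TPM in the same libraries. Whether Il2ra RNA came from all cells or from a minority was not tested, since in bulk RNA fewer cells with a gene and less RNA per cell cannot be told apart.

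Il13ra1 and Il9r were not detected. Il13ra1 (chromosome X), which joins Il4ra in the type II receptor for IL-4 and IL-13, had 5, 5 and 7 counts, or 0.16, 0.12 and 0.19 TPM. Pooled over the libraries, Il4ra exceeded it 4790-fold per length (95% Clopper-Pearson interval 2992 to 8223, which covers counting error only). This fold takes all Il4ra forms together, and its full-length coding form alone had 98.8, 86.7 and 91.8 TPM. Il9r (chromosome 11), the IL-9 chain, had 1, 0 and 2 counts. Il13ra2 (chromosome X), an IL-13-binding chain known as a decoy, had 1 count in all. By the rule used here the type I composition of the IL-4 receptor was complete and the type II composition was not.

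The gp130 family had graded specific chains and a high shared chain. Il27ra (chromosome 8, 84030294 to 84042589), the IL-27 chain, had 176, 161 and 173 TPM. Il6ra (chromosome 3, 89864059 to 89913196), the IL-6-binding chain, had 73.5, 65.2 and 74.1 TPM. Il11ra1 (chromosome 4, 41699989 to 41769474), the IL-11-binding chain, had 7.74, 6.52 and 8.07 TPM. These chains pair with gp130, which gives the signal for each of them. Il6st (chromosome 13, 112464070 to 112510086), which encodes gp130, had 285, 256 and 263 TPM. No library of Il27ra, Il6ra or Il11ra1 overlapped one of Il6st, and none of the 3 overlapped another. Their log2 ratios to Il6st were -0.65 ± 0.05, -1.92 ± 0.08 and -5.16 ± 0.13 in that order (SD, n = 3 each). For Il11ra1, 46.3% of its 50-base sequences also occur in transcripts of the copy Gm13305, which was listed at 0, and the copy Gm20878 had 1.12 to 2.92 TPM, so its level is uncertain. In contrast Lifr, Osmr and Il31ra, the chains for LIF, oncostatin M and IL-31, had 5, 18 and 2 counts over the 3 libraries. Il6st exceeded Lifr 7279-fold per length (interval 3119 to 22419) and Osmr 1398-fold (885 to 2360).

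In the IL-12 family only the IL-12 pair was detected, and barely. Il12rb1 (chromosome 8, 70808449 to 70821424), shared by IL-12 and IL-23, had 1.9, 1.55 and 1.53 TPM from 44, 47 and 44 counts. Il12rb2 (chromosome 6, 67291318 to 67376188), the signalling chain for IL-12 that type 1 helper cells keep, had 1.28, 1.58 and 1.24 TPM from 32.4, 51.8 and 37.3 counts. These levels overlapped and their log2 ratio was 0.26 ± 0.28. Il23r (chromosome 6), the IL-23 chain, had no counts in any library, so Il12rb1 was at least 39.96-fold higher per length (floor of 3 counts over the group). The Il12rb2 values carry a further limit. Of its exonic bases, 1519 (40.04%) are shared with exons of Serbp1 on the opposite strand, which had 442, 426 and 474 TPM, and the sources used here do not say whether counting used strand. In the only Il12rb2 form with reads, Il12rb2-201, 819 of 2998 bases are shared, and the form with the longer overlap, Il12rb2-202, was listed at 0.

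Chains of the common β family and of the M-CSF receptor were low throughout. Csf2ra (chromosome 19, 61223957 to 61228429), the GM-CSF-binding chain, had 6.57, 7.46 and 4.55 TPM. Il3ra (chromosome 14, 14346275 to 14356011), the IL-3-binding chain, had 1.69, 3.05 and 3.17 TPM from 16, 43 and 32 counts. Il5ra (chromosome 6), the IL-5-binding chain, had 9 counts in all. The shared chain Csf2rb (chromosome 15) had 4, 4 and 3 counts, or 0.10, 0.08 and 0.06 TPM, and its close copy Csf2rb2 had 1 count. Csf2ra thus exceeded its partner 79.3-fold per length (interval 43.7 to 161) and Il3ra exceeded it 34.8-fold (18.6 to 72.2). Csf1r (chromosome 18), the M-CSF receptor of macrophages, had 0.03, 0 and 0.13 TPM. Part of its exons, 15.1%, is shared with Hmgxb3 on the opposite strand.

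Within the IL-1 family, binding chains and accessory chains were unevenly matched. Il18r1 (chromosome 1, 40465552 to 40500854), the IL-18-binding chain, had 27.2, 21.9 and 24.4 TPM. Il1rl2 (chromosome 1, 40324610 to 40367562), which binds IL-36, had 16.4, 13.5 and 14.0 TPM. Il1rap (chromosome 16, 26581704 to 26730117), the accessory chain for IL-1, IL-33 and IL-36, had 12.6, 7.70 and 12.1 TPM, and library 2 lay apart from the other two. Only the IL-36 pair was complete, with a log2 ratio of Il1rl2 over Il1rap of 0.46 ± 0.31. Il18rap (chromosome 1), which Il18r1 needs to signal, had 3, 3 and 7 counts, and Il18r1 exceeded it 236-fold per length (interval 137 to 443). Il1r1, the signalling receptor of IL-1, had 5 counts in all, and Il1rl1, the IL-33 chain ST2, had 18. Il1r2, a decoy for IL-1, had 6, 1 and 1 counts.

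In the IL-17 family 1 chain was high and its partners were not. Il17ra (chromosome 6, 120463247 to 120487559), common to the receptors of IL-17A, IL-17C, IL-17F and IL-25, had 241, 183 and 247 TPM. Il17rc (chromosome 6), needed for IL-17A and IL-17F, had 1, 5 and 9 counts, or 0.07, 0.26 and 0.52 TPM. Il17rb (chromosome 14), the IL-25-binding chain, had 0.75, 1.10 and 1.03 TPM, on both sides of the threshold. Il17ra exceeded Il17rc 756-fold per length (interval 458 to 1351) and Il17rb 236-fold (178 to 318). These folds take all Il17ra forms together, and its coding form alone had 0.48, 0.96 and 1.34 TPM. Il17re and Il17rd, the IL-17C chain and a chain known as a regulator of growth factor signalling, had 12 and 38 counts in all. Of the Il17rb-201 exonic bases, 6.84% are shared with Actr8 on the opposite strand, at 43.8 to 60.3 TPM.

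The remaining class II chains bind the IL-10 family. Il10ra (chromosome 9, 45253837 to 45269149), the IL-10-binding chain, had 11.1, 9.34 and 10.4 TPM. Il10rb (chromosome 16, 91406164 to 91425834), shared by IL-10 and IL-22, had 38.0, 35.4 and 42.2 TPM. The IL-10 pair was complete, with Il10ra below Il10rb by a log2 ratio of -1.90 ± 0.13. Il20rb (chromosome 9, 100457719 to 100486788), a chain of the IL-19, IL-20 and IL-24 receptors, had 1.59, 1.89 and 3.05 TPM, whereas Il20ra had 4 counts in all. Il22ra1 (chromosome 4), the IL-22 chain of epithelial cells, had no counts, so Il10rb was at least 969-fold higher per length (floor of 3 counts over the group).

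Counted as receptors, 13 of 32 were complete, meaning that every chain was detected. Another 16 had at least 1 detected chain and at least 1 that was not, and 3 (IL-5, IL-31 and M-CSF) had none. The complete ones were those for IL-2 with and without the α chain, IL-4 (type I), IL-15, IL-21, IL-6, IL-11, IL-27, IL-10, IL-12, IL-36, interferon-α/β and interferon-γ. The 32 leave out the receptors for IL-7 and TSLP, whose chains Il7r, Il2rg and Crlf2 were each detected. They also leave out the type III interferon receptor, whose chain Ifnlr1 was not detected. By family within the 32, 5 of 7 common γ receptors, 3 of 6 gp130 receptors and both interferon receptors were complete. In the common β family 0 of 3 were complete, and in the IL-17 family 0 of 3. Il17ra, Il18r1, Csf2ra, Il3ra and Il20rb were detected without a complete receptor. Of the 25 pairs made of 2 of the 43 genes, 16 had chains that differed by more than 2 on the log2 scale in the same direction in each library. Among these, only the IL-11 pair had both chains detected, and the level of Il11ra1 is uncertain. The number thus mostly restates which chains were not detected. With 1 instead of 0.1 added to TPM it was 12. The call for IL-25 rested on library 1, since 14 receptors were complete without that library. The IL-12 call rested on 32.4 to 51.8 counts per chain in a library and on the chain that overlaps Serbp1.

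**Figure D2:**
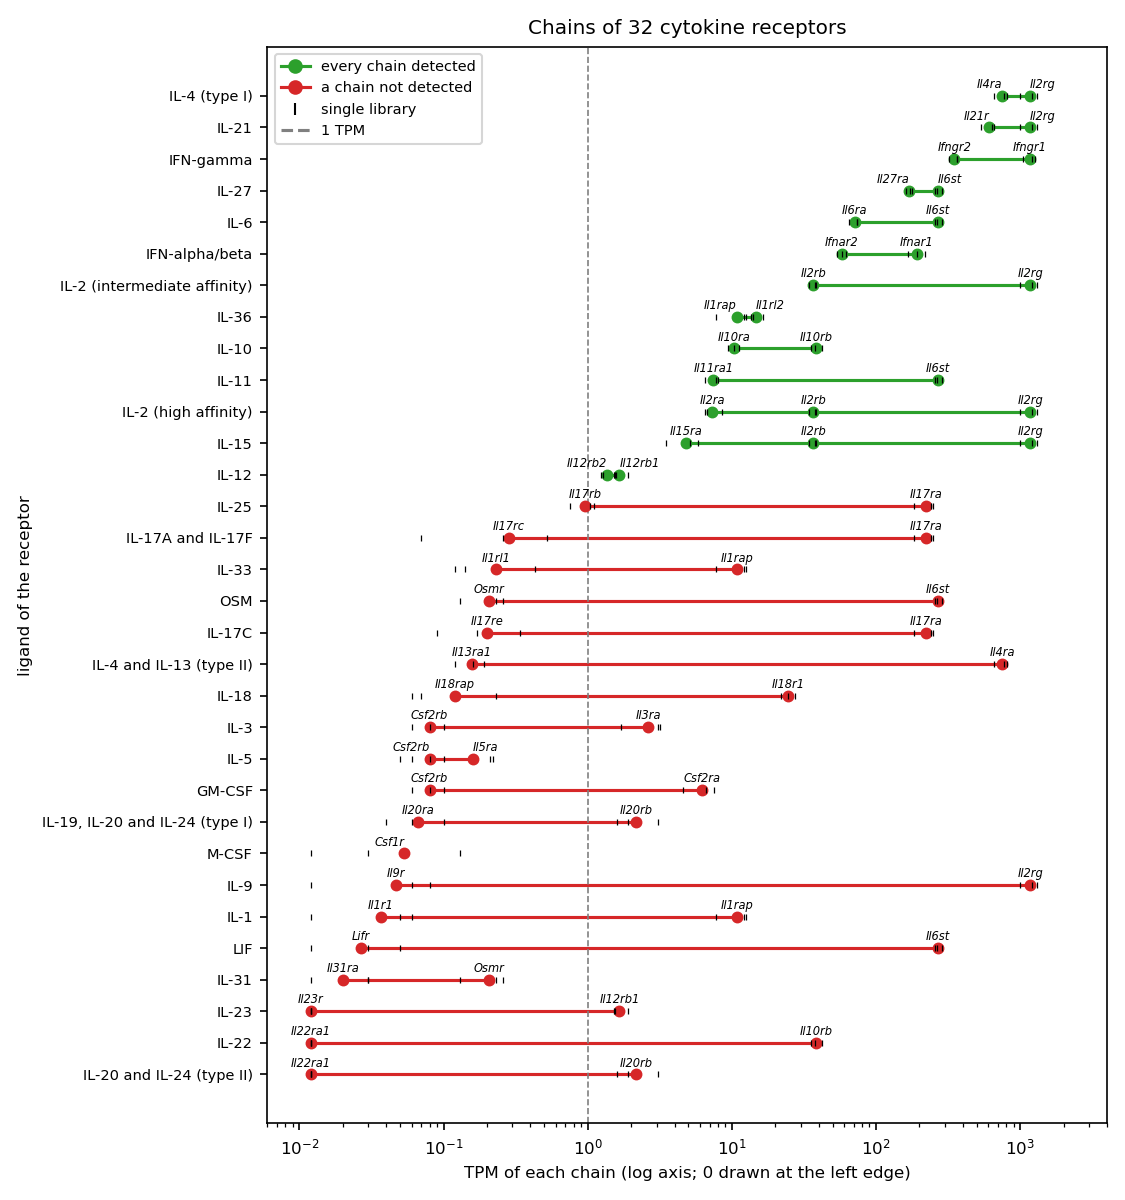
TPM of the chains of 32 receptors (log axis), 1 row per receptor named by its ligand, with dots for chain means over 3 libraries and ticks for single libraries. Green rows have every chain at 1 TPM or more in each library (13 receptors) and red rows do not (19 receptors, of which IL-25 has Il17rb at 0.75 to 1.10 TPM).

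Several receptor genes are neighbours in the genome, and neighbours did not always share a level. On chromosome 16, Ifnar2, Il10rb, Ifnar1 and Ifngr2 follow one another within gaps of 0.575, 59.4 and 39.6 kilobases, and all 4 were detected. On chromosome 1, Il1r2, Il1r1, Il1rl2, Il1rl1, Il18r1 and Il18rap form a row in which only Il1rl2 and Il18r1 were detected. Il1rl1 (mean 0.230 TPM) ends 0.137 kilobases before the start of Il18r1 (24.5 TPM). Next to Il6st (268 TPM), Il31ra had 0.02 TPM at a gap of 9.81 kilobases. On chromosome 10, Il20ra (0.0667 TPM) lies 102 kilobases from Ifngr1.

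Most genes listed for signalling by these chains were detected. All 4 JAK genes were detected, led by Jak1 at 894, 776 and 861 TPM, which associates with many of the chains described above. Jak2 and Jak3 averaged 71.8 and 71.2 TPM. All 7 STAT genes were detected, and among them Stat3 and Stat5b had means of 335 and 273 TPM. Of 8 genes of the SOCS family, which restrain JAK signalling, 7 were detected and Socs3 (155), Socs1 (29.2) and Socs4 (25.3 TPM) led. All 10 listed genes of IL-1 and IL-18 receptor signalling were detected, Irak1 (177), Sigirr (69.5) and Myd88 (50.9 TPM) being highest. The same held for the 5 genes listed for IL-17 receptor signalling, where Traf5 (108), Traf3ip2 (66.1) and Traf2 (60.3 TPM) led. The genes listed for signalling of both families were thus detected in libraries where Il18rap and Il17rc were not. Among 31 ligand genes only Il16 (335 TPM) and Osm (20.4 TPM) were detected, followed by Csf1 at 0.710, and 10 were at 0 in every library. None of the 32 receptors is listed for IL-16. Of 5 genes for soluble antagonists, Il18bp, which binds IL-18, was detected at 2.40, 2.24 and 2.92 TPM, and Il1r2 and Il1rn followed at 0.303 and 0.197 TPM. The other receptor chains outside the 43 genes were led by Il2rg, Il7r at 377 TPM and Crlf2, the TSLP chain, at 35.2 TPM.

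Total gene levels do not say which RNA forms were made. The transcripts of each gene were therefore sorted by annotated type and by whether the translation holds a hydrophobic stretch that could span the membrane (19 residues with a mean Kyte-Doolittle value of at least 1.6, after residue 40). The longest translation of all 43 genes held such a stretch. In 9 of the 23 detected genes, 50% or more of the pooled TPM was given to transcripts that are not coding or lack the stretch, where 27.3% of the 2546 detected protein-coding genes with such a stretch had the same. Those genes were Il17ra, Il4ra, Ifnar2, Il20rb, Ifnar1, Csf2ra, Ifngr2, Ifngr1 and Il15ra. In libraries 1, 2 and 3, Csf2ra had 36.0%, 73.4% and 48.6% in such forms and Il15ra 58.2%, 61.2% and 27.5%. Neither thus reached 50% in every library. By share of expected counts, which are not corrected for length and so weight long models upward, the number was 3 (Il17ra, Il4ra and Il15ra). The same background had 13.9%. Il15ra was close to the line, at 50.5% of 184 counts. Whether 9 of 23 by TPM or 3 of 23 by counts departs from these backgrounds was not tested. The median share in such forms was 31.8% of TPM in the detected receptor genes and 25.3% in the background. By counts these medians were 17.2% and 11.6%. Il6ra, Il2rb and Il12rb2 had all of their TPM in coding forms with the stretch.

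**Figure D3:**
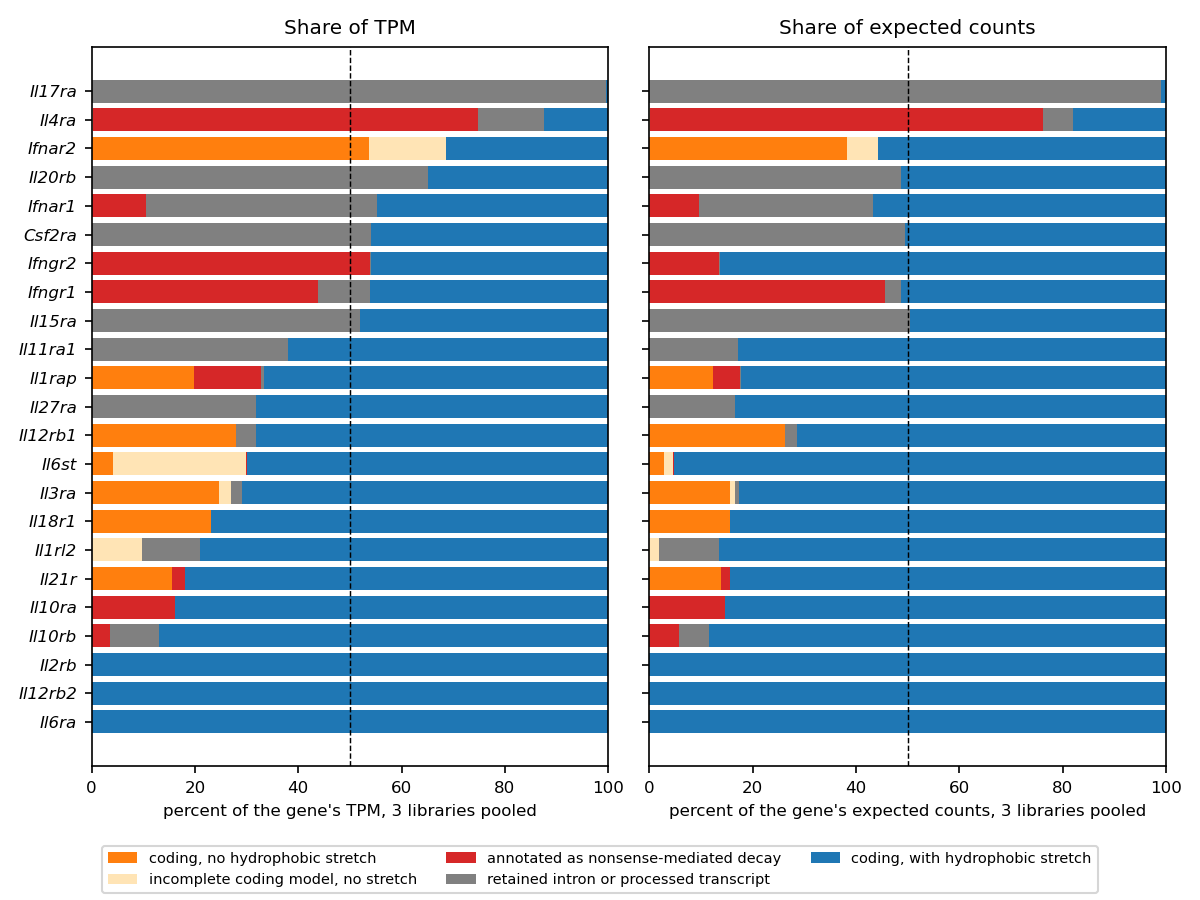
Share of each detected receptor gene's TPM (left) and expected counts (right), pooled over 3 libraries, by class of annotated transcript, with a dashed line at 50%. The 9 genes at the top have less than 50% of TPM in coding forms with the hydrophobic stretch (blue) and 3 do by counts, with Il17ra and Il4ra lowest on both sides.

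Il4ra RNA was mostly assigned to a form with a stop codon before the membrane segment. Il4ra-205, which the annotation classes as a target of nonsense-mediated decay, held 74.2%, 72.9% and 76.3% of the gene's TPM in libraries 1, 2 and 3. The full-length coding form Il4ra-201 held 12.2%, 13.1% and 11.9%, and the retained-intron form Il4ra-204 held 13.5%, 13.7% and 11.5%. By expected counts Il4ra-205 held 76.2%. It contains every coding base of Il4ra-201 and an additional exon of 114 bases, in which the reading frame ends after 230 residues, against 810 residues in Il4ra-201. A secreted form of this chain made by alternative splicing is known in mice. The sequences below show the last 40 coding bases that both forms share, then in capitals the bases of each form up to the stop codon of Il4ra-205 (chromosome 7, plus strand, capitals of Il4ra-205 from 125571934 to 125571953).
Il4ra-205: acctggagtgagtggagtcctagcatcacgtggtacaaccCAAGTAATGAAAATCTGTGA
Il4ra-201: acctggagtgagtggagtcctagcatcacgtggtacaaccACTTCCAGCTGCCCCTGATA
The 2 forms also differ at their ends: the model of Il4ra-201 runs 1507 bases further at the 3′ end and 167 bases further at the 5′ end. The tables hold no reads per exon, so whether the assignment rests on the additional exon or on the ends was not tested. Il4ra-204 shares 35.4% of its bases with the antisense gene Gm44876 (92.7 to 118 TPM). With coding forms that hold the stretch alone, Il4ra would stand at 98.8, 86.7 and 91.8 TPM.

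Nearly all Il17ra TPM went to models annotated as not coding. Il17ra-203, a retained-intron model, held 69.8%, 70.5% and 68.8%, and the processed transcript Il17ra-202 held 30.1%, 29.0% and 30.7%. The coding form Il17ra-201 held 0.20%, 0.53% and 0.54%, or 0.48, 0.96 and 1.34 TPM. Counted by that form alone, Il17ra would not be called detected. Il17ra-203 contains all 2592 coding bases of Il17ra-201 with 882 further internal bases, and Il17ra-201 runs 3830 bases further at the 3′ end. As with Il4ra, on which of these the assignment rests was not tested.

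**Figure D4:**
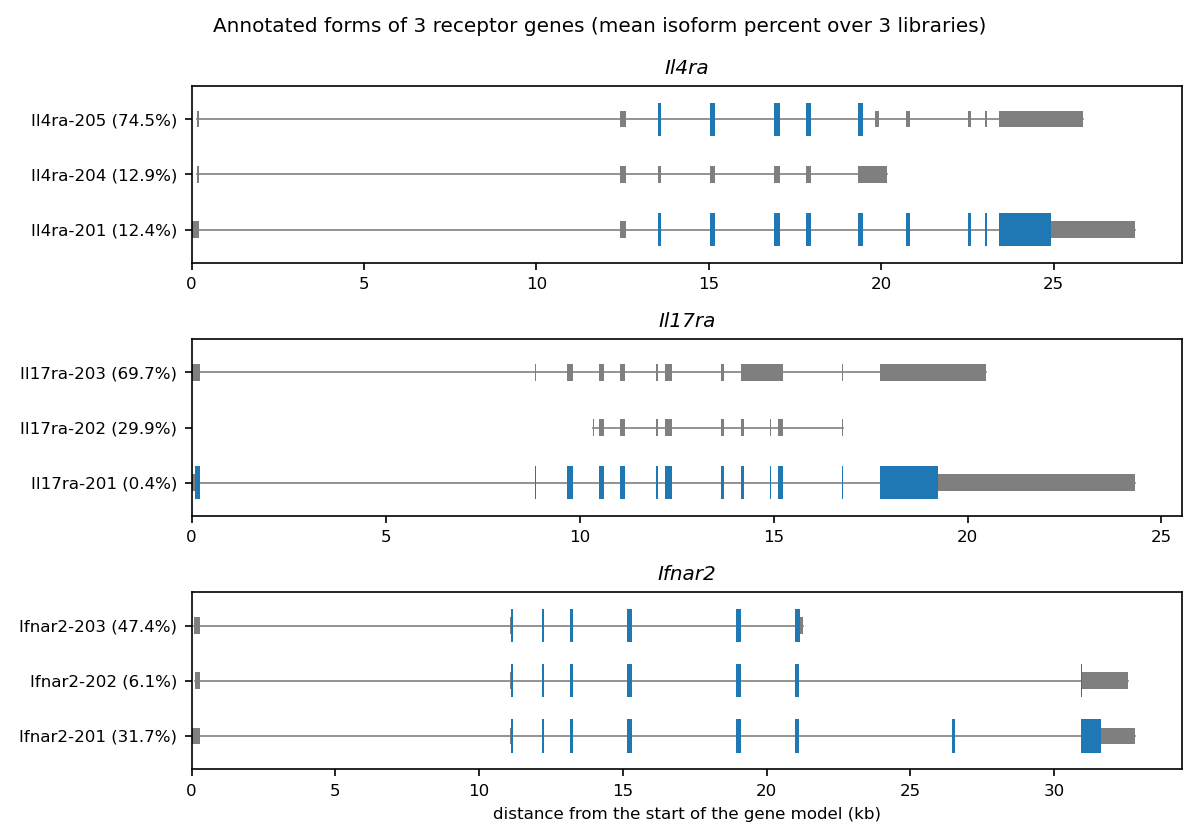
Exons of annotated forms of Il4ra, Il17ra and Ifnar2 along the gene (kilobases from the start of the gene model), with coding parts in blue and other exon parts in grey, and the mean isoform percent beside each name. The leading forms, Il4ra-205 (74.5%), Il17ra-203 (69.7%) and Ifnar2-203 (47.4%), all end before the 3′ end of the full-length coding form drawn below them.

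Interferon receptor genes also had mixed forms. Ifnar2-203 held 48.2%, 47.7% and 46.2% of TPM, and the full-length Ifnar2-201 held 30.1%, 37.7% and 27.2%. By expected counts the order was the other way, with 29.1% for Ifnar2-203 and 55.7% for Ifnar2-201. Ifnar2-203 reads on past the splice site into 38 coding bases of its own and ends after 248 residues, whereas Ifnar2-202 skips the exon with the stretch and ends after 247; Ifnar2-201 has 513. A secreted form of this chain is known in mice. Ifnar2-202 had 109, 0 and 157 counts, so it was listed at 0 in library 2 and not in the others. The sequences show the shared 40 coding bases and, in capitals, the coding bases of each form after the junction at 91393913 on chromosome 16 (plus strand), cut to the length of Ifnar2-203 for Ifnar2-201.
Ifnar2-203: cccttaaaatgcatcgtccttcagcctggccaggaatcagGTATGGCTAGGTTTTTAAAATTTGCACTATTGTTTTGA
Ifnar2-202: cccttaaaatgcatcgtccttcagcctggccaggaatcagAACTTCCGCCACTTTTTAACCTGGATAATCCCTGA
Ifnar2-201: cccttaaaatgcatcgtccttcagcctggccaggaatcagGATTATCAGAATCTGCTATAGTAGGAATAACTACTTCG
Ifngr1 was divided between the coding Ifngr1-201, with 48.6%, 46.9% and 43.3%, and Ifngr1-203, with 41.3%, 41.6% and 48.1%. Ifngr1-203 lacks 14 coding bases at the end of an exon, which ends its frame after 75 residues, and is annotated as a decay target. Ifngr2-202, a short decay-type model, held 54.7%, 52.5% and 54.2% of TPM but 13.4% of expected counts. Ifnar1-205, a retained-intron model that contains 11.1% of the coding bases of Ifnar1-201, held 44.8%, 42.2% and 46.6% of TPM and 33.7% of counts.

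Forms without the stretch were also found in other receptor genes, and those of Il21r and Il1rap are complete coding models. Il21r-202, which lacks an exon of 97 bases and encodes 268 residues against 529 in Il21r-201, held 15.6%, 15.9% and 15.5% of Il21r TPM. Its level of 99.6, 84.8 and 102 TPM exceeded the whole level of Il6ra in each library. Il1rap-206, with 360 residues against 570 in Il1rap-201, held 17.4%, 17.8% and 23.7% from 42.4, 34.5 and 66.2 counts. A secreted form of this accessory chain is known. The sequences show for each pair the 40 shared coding bases and then, in capitals, the coding bases that follow in each form, to the stop codon of the shorter one or a length near it (Il21r on chromosome 7 and Il1rap on chromosome 16, plus strand, junctions at 125629043 and 26701236).
Il21r-202: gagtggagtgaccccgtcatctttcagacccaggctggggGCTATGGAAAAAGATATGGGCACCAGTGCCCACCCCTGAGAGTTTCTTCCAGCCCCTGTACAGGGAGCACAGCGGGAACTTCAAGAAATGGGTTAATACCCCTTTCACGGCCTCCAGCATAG
Il21r-201: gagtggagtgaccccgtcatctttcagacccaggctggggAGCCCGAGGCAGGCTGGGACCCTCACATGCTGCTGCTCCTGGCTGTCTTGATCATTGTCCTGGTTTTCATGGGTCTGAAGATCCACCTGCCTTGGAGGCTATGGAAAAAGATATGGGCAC
Il1rap-206: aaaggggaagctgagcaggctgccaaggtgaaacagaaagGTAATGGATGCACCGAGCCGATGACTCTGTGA
Il1rap-201: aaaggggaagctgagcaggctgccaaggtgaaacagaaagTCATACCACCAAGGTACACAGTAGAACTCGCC
The Il21r-201 line holds the bases of the skipped exon before the 2 forms meet again. Il18r1-205, with 267 residues against 537 in Il18r1-202, held 31.5%, 18.9% and 17.7%, and library 1 lay apart from the others. The leading form of this gene, Il18r1-204, held 26.2%, 30.2% and 29.6%. It keeps the stretch but ends after 372 residues, with 25 after the stretch against 190 in Il18r1-202. The rest of Il18r1 TPM was thus not all in full-length forms. For the low genes the forms were not stable between libraries. Il12rb1-205, which lacks the stretch, held 47.7%, 31.3% and 0%, and the form with the stretch, Il12rb1-201, had 0.89, 0.98 and 1.53 TPM. Counted by forms with the stretch alone, the IL-12 receptor was therefore not complete. Il20rb-205, a processed transcript, held 50.3%, 33.2% and 38.9% from 11.3, 11.5 and 19.9 counts. Il6st-205, an incomplete model of 322 bases, held 25.7%, 27.0% and 24.95% of Il6st TPM but 1.83% of its counts.

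Between libraries, 10 of the 25 receptor genes that averaged 10 or more counts differed beyond counting error (chi-square test of homogeneity against TMM-scaled library sizes, Benjamini-Hochberg adjusted over 13090 genes), where 40% of all genes tested did so. The receptor genes were therefore at the background rate. Il4ra, Il17ra, Ifngr1, Il21r, Ifnar1, Il6st and Il1rap were lowest in library 2. Csf2ra and Il1rl2 were lowest in library 3, and Il3ra in library 1. The ratio of highest to lowest scaled count among the 10 was between 1.08 (Il6st, adjusted p = 4.59e-07) and 2.25 (Il3ra, adjusted p = 0.0453). Il17ra had scaled counts of 8301, 6922 and 8529 (ratio 1.23, adjusted p = 1.69e-42), and Il4ra had 27900, 24707 and 26870 (ratio 1.13, adjusted p = 1.35e-42). Of the 10 receptor genes with a mean of at least 1000 scaled counts, 6 differed, where 71.6% of all genes so covered did. Ifngr2, Il27ra and Il6ra were among those not past the threshold, with ratios of 1.03 (adjusted p = 0.341, 0.580 and 0.737 in that order). Il1rap had 430, 308 and 425 scaled counts (ratio 1.40, adjusted p = 1.65e-05). Csf2ra had 97.9, 115 and 67.7 (ratio 1.70, adjusted p = 0.00557), and Il1rl2 had 547, 473 and 457 (ratio 1.20, adjusted p = 0.0325). Ifngr1, Il21r and Ifnar1 had ratios of 1.14, 1.14 and 1.12. Library 2 was also the lowest in TPM for 17 of the 23 detected receptor genes, as it was for 59.8% of detected protein-coding genes. Without library 2 the number of differing genes was 5, and Il17ra, Il21r, Il1rap, Csf2ra and Il3ra were no longer past the threshold. Without library 1 the calls of Il1rl2 (adjusted p = 0.715), Il3ra (0.368) and Il6st (0.385) were lost, and without library 3 those of Csf2ra (0.447) and Il1rl2 (0.0726). Il1rl2 and Il3ra also missed the threshold with no filter on low counts (adjusted p = 0.105 and 0.0924), and Il3ra with library totals (0.0549).

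**Figure D5:**
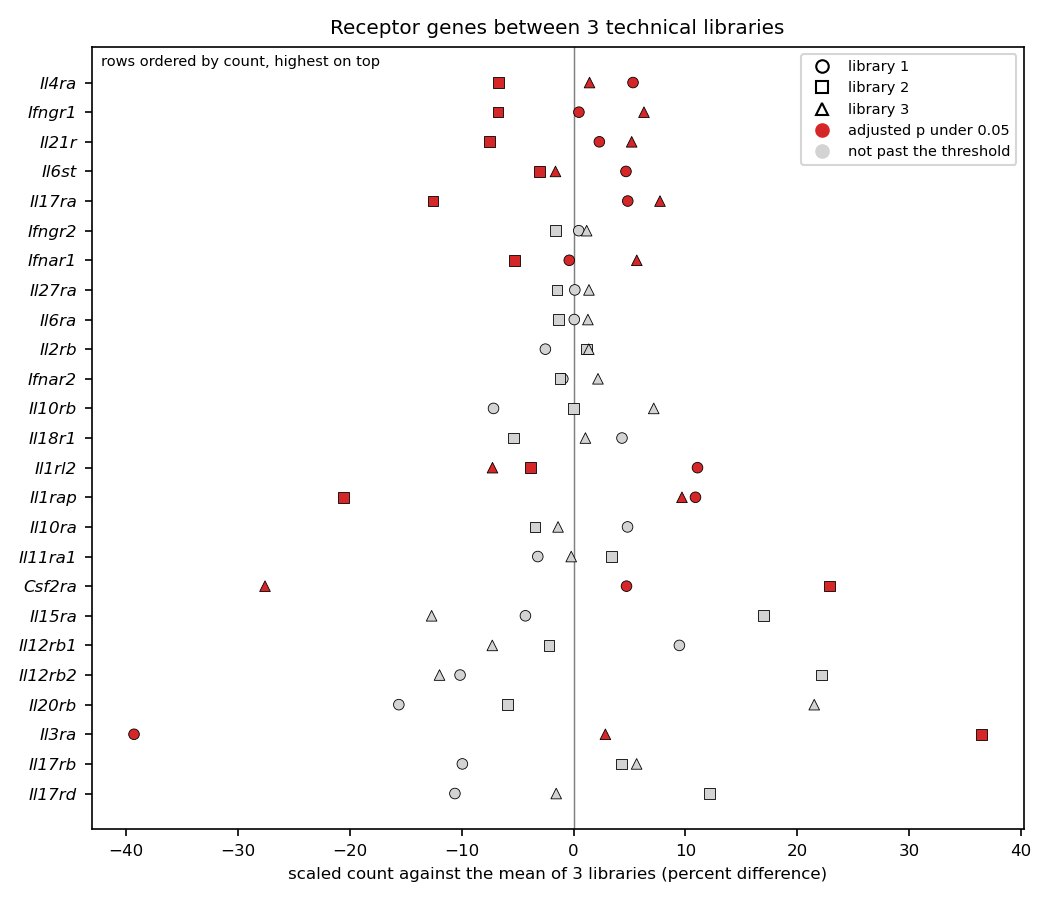
Scaled count of each of the 25 tested receptor genes in library 1 (circles), library 2 (squares) and library 3 (triangles) as percent difference from the mean of the 3 libraries, ordered by count with the highest at the top. Red genes passed an adjusted p of 0.05 (10 genes), and library 2 is the lowest in 7 of them.

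Protein and promoter sequences gave 2 further descriptions. The motif WSXWS, a mark of type I cytokine receptors, occurs in the longest translation of 14 of the 43 genes, all outside the IL-1, IL-17 and class II families. Of 43 genes, 35 matched a promoter window of 300 bases (250 before to 50 after the start, RefSeq, GRCm38.p6), and genes with several windows were given their highest value. The 17 detected genes among them had a median of 18 CG dinucleotides per window, the 18 undetected genes 9, and all 27025 genes with a window 8. The ranges of detected (1 to 35) and undetected genes (1 to 53) overlapped. TTCNNNGAA, a motif bound by STAT factors that reads the same on both strands, was in 4 of 17, 2 of 18 and 9.55% of these groups in the same order. Neither promoter measure was taken over all detected genes alone. Whether the values are particular to the receptor genes was therefore not tested.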

How the data were processed

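Per the text deposited beside the tables, reads were assigned on mm10. The gene and isoform tables use GENCODE M21, and a separate table of whole-number counts uses the older GENCODE M4. Neither the aligner and counting tool nor their versions or use of strand are given in the sources used here. The authors deposited expected counts (estimated counts), TPM, and isoform percent per library, and raw counts on the older annotation, which totalled 5160325, 5816158 and 5703629. Entries that are no genes held 0.200% to 0.325% of expected counts. Detection required 1 TPM in each library. Expected counts were rounded for the homogeneity test (scipy 1.17.1, TMM sizes from edgeR 4.0.16; DESeq2 1.42.0 size factors as an alternative), which was tested on simulated data. Fold intervals are exact Clopper-Pearson at 95% and cover counting error only, since reads are not independent molecules. P-values measure the spread between technical libraries. Named were all 43 genes, partner chains on which a receptor turns, the 3 highest genes of each pathway list, genes that differ between libraries and leading forms without the membrane stretch. Some items under this rule are not reported here. The genes, lists and tests were chosen with earlier results of these data known.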

Additional observations from a re-analysis of the deposited data

How the results depend on the processing

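The number of receptor genes detected lay between 17 (5 TPM) and 26 (posterior mean TPM), against 23, and that of complete receptors between 11 and 17, against 13. The posterior mean added GM-CSF, IL-3, IL-25 and IL-17A with IL-17F, and 5 TPM removed IL-12 and IL-15. Coding forms with the stretch alone gave 12, as did leaving out chains that overlap a more abundant opposite-strand gene (chosen after seeing the data), and both removed IL-12. Of 10 genes that differed between libraries, 4 did so with counts on the older annotation (without Csf2ra, Ifnar1, Il1rap, Il1rl2, Il3ra and Il6st), and leaving out 1 library gave 5 to 8, with 5 in the absence of library 2 (without Il17ra, Il21r, Il1rap, Csf2ra and Il3ra). Genes led by forms without the stretch numbered 9, but 15 at 25% and 3 by share of expected counts (chosen after seeing the data). Leaving out library 2 gave 7 (without Csf2ra and Il15ra), and leaving out library 1 gave 8 (without Il15ra). The mean of the deposited isoform percent also gave 8 (without Il15ra). The log2 ratio of Il10ra over Il10rb was 0.069 on counts of the older annotation, which carry no length correction, against -1.90. Of 64 alternative values of 8 chain ratios, 47 moved by less than 1 SD and 16 by more. Among the 16 was Il12rb1 over Il12rb2 on counts of the older annotation, which changed sign (-0.44, against 0.26 ± 0.28). The other value is that of Il10ra over Il10rb. The 47 include every value with 1 library left out. Those values could not move by 1 SD, because the SD comes from the same 3 libraries. The 47 thus do not measure how stable the ratios are. For the values that moved the cause was not tested. No paired analysis was possible because the labels give 1 group only. Depth limits the genes under about 50 counts, whose forms and order are not resolved, and 1 mouse gives no measure of the spread between animals.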

Other observations

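The whole-number counts on the older annotation held a different share of each receptor gene's expected counts. Il12rb2 had 116% of its expected counts there, Il18r1 55.9%, Il21r 21.9%, Il4ra 18.3% and Ifngr1 14.0%. For the highest genes the older counts were nearly level between libraries: Ifngr1 had 3005, 3039 and 2993, Il4ra 4791, 4804 and 4868, and Il21r 3096, 3140 and 3211. What sets these shares was not tested.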
